A study of Mus musculus with 6 samples.

Results

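miR-344d is a mouse microRNA made from several nearly identical hairpins on chromosome 7. It was followed here in the exosomes of HN9.10e cells, through 6 of the 1973 rows of the deposited table, in which a row is a miRNA hairpin gene. These rows carry the GENCODE M21 names Mir344d-1, Mir344d-2, Mir344d-3, Gm23490, Gm23962 and Gm23873, listed as the annotated miR-344d hairpins and their predicted copies. Gm23873 was listed with them, though its sequence stands apart, as given below. They were selected on their measured difference between ceramide and control exosomes in these same libraries, so that difference is given as a description, and no p is given for a member.

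HN9.10e is an immortalized mouse embryonic hippocampal cell line of wild type genotype, grown in medium with fetal bovine serum, and the series holds no other cells. The control (CTR) cells received no treatment, and the ceramide (Cer) cells received 100 nM ceramide, a sphingolipid used in the study as its short-chain C6 form. Exosomes, the small vesicles that cells release, were isolated from the culture medium of both after 48 h, and their small RNA was sequenced in 3 CTR and 3 Cer libraries. The paper calls the replicates biological, while nothing in the labels ties a library to a culture of its own. The tests measure the spread between these libraries, which may be partly technical.

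A microRNA is cut from a hairpin precursor, from whose arms come a 5p and a 3p miRNA, and bases 2 to 8 of the mature miRNA, the seed, set which messenger RNAs it pairs with. The miR-344 family is encoded by many related hairpins in the chromosomal region of the imprinted genes Snrpn and Ndn, and miR-344 has been described in the embryonic mouse nervous system. A hairpin row adds up both arms, so 5p and 3p miRNAs could not be told apart by the counts.

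The hairpins are shown first, because their sequences bear on how the rows can be read. Capitals mark the miR-344d-3p miRNA, which 5 of the 6 hairpins contained whole. The sequences of the 3 Mir344d hairpins are from RefSeq (GRCm38.p6), where only these 3 of the 6 members had an entry, and those of the Gm rows are GENCODE M21 transcripts written with U.
Gm23962: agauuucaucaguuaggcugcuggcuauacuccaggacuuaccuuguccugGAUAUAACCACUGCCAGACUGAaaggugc
Mir344d-1: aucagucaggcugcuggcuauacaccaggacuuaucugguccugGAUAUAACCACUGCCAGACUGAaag
Mir344d-2: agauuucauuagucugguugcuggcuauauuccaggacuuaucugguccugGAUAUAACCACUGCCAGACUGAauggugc
Gm23490: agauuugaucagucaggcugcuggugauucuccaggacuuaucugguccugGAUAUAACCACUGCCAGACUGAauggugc
Mir344d-3: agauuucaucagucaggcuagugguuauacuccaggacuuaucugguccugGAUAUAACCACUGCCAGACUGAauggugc
Gm23873: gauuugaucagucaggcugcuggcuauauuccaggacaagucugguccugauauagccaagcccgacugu

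The 5 hairpins with miR-344d-3p differed from each other mostly on the 5p side and in the loop, and not in the 3p miRNA. Among the 4 copies of 80 bases, 14 positions varied, of which 13 lay before the 3p miRNA, 0 within its 22 bases and 1 after it. Their pairwise differences ran from 5 bases, between Gm23490 and Mir344d-3, to 8 bases. Of the 1894 rows with a GENCODE sequence, 5 contained miR-344d-3p, all of them members, so a read of this miRNA has 5 equally good places in the annotation. The counting option named in the methods, STAR's GeneCounts, leaves out reads that align to several places, yet these rows held large and nearly equal counts, as given below. How such reads entered the table is not known, and what a single count on these rows stands for is therefore not settled. The 5p miRNAs of the 3 Mir344d hairpins, by contrast, each matched 1 row. At aligned positions counted from their first base, miR-344d-1-5p and miR-344d-2-5p had the same base at 20 of 24 positions, and miR-344d-2-5p and miR-344d-3-5p at 17 of 23.

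Gm23873 stood apart by sequence. It did not contain miR-344d-3p, sharing with it at most 6 bases in a row, and the seed of miR-344d-3p was not in its hairpin. Its longest run in common with any row was 23 bases with Gm23490, at the 5′ end, followed by 22 bases with Mir344d-1. Its identity with the other 5 members was 82.9% to 85.9% of the aligned bases, against 90.0% to 94.2% among those 5. It held the 5p seed of miR-344d-1-5p and miR-344d-3-5p, which also occurs in the 5p miRNAs of Mir344, Mir344b, Mir344c and Mir344g.

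The seed of miR-344d-3p, in capitals below, is shared by 3 mouse miRNAs of the RefSeq table. They are shown to set miR-344d-3p beside the other miRNAs that carry its seed.
mmu-miR-344d-3p: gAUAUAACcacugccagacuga
mmu-miR-344e-3p: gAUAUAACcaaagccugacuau
mmu-miR-410-3p: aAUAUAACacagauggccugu

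Among the hairpin rows of these 3 miRNAs, that of miR-344d held nearly all the counts, with both arms added up and no count of the 3p miRNA alone. The row of Mir410, a hairpin of chromosome 12 from the imprinted Dlk1-Dio3 miRNA cluster, held 2, 2 and 1 counts in CTR replicates 1, 2 and 3 and 0, 4 and 8 in Cer replicates 1, 2 and 3. Mir344e held 0 counts in every library, which allows a level of up to 1.09 to 3.75 CPM (counts per 1000000 counts) depending on the library, from 3 counts and for counting error only. Of the counts on Mir344d-3, Mir410 and Mir344e together, Mir344d-3 held between 99.1% and 100% in each library.

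All members lie on the minus strand of chromosome 7 of GRCm38, within 69.0 kb, from chr7:61681515 to 61750537. From low to high coordinate, Gm23962 lies at chr7:61681515-61681594, Mir344d-1 at chr7:61683124-61683192 and Mir344d-2 at chr7:61685272-61685351, and no longer annotated gene overlaps these 3. Gm23490, at chr7:61706591-61706670, lies in an exon of the noncoding RNA A230057D06Rik of the same strand. Mir344d-3, at chr7:61726249-61726328, and Gm23873, at chr7:61750468-61750537, lie in its introns. The nearest protein-coding genes are Snrpn, 1541 kb below the first member, and Ndn, 596 kb above the last.

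The libraries held 800810 to 2760015 counts in all, with 335 to 1009 counts on Mir344d-3 and 7 to 28 on Gm23873. Where near-identical rows repeat a signal, the total holds it more than once, and intervals computed from counts cover counting error only. Abundance is given below as normalized CPM, with library sizes scaled by the TMM method of edgeR. All 13 rows of a list of miRNAs known from neural cells, such as miR-124 and miR-9, had counts in every library and were, summed, at 21597 to 22794 CPM in CTR and 20105 to 25040 CPM in Cer. A list of serum and blood miRNAs had 5 rows, those of miR-451a, miR-144, miR-486, miR-122 and miR-223. They summed to 375 to 408 CPM in CTR and 351 to 404 CPM in Cer. The 4 muscle rows summed to 120 to 148 CPM in CTR and 135 to 168 CPM in Cer. The summed ranges of the 2 groups overlapped for all 3 lists. Of these rows, 2 neural ones were called lower in Cer by the rule given below and 0 of the other 9 were called, and the part of other cells' or serum RNA in the results was not tested.

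Mir344d-1 held 692, 910 and 902 counts in CTR replicates 1, 2 and 3, and 328, 983 and 882 in Cer replicates 1, 2 and 3. Mir344d-2 held 692, 910 and 902 counts in CTR and 329, 982 and 879 in Cer, in the same order. Gm23490 had exactly the counts of Mir344d-2 in all 6 libraries. Gm23962 held 691, 910 and 901 counts in CTR and 328, 981 and 879 in Cer. These 4 rows were within 3 counts of each other in any library, although their hairpins differed by several bases outside the 3p miRNA, so they repeat 1 signal.

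Mir344d-3 was the row with the most counts, 698, 923 and 915 in CTR replicates 1, 2 and 3 and 335, 1009 and 898 in Cer replicates 1, 2 and 3. It exceeded the lowest of the other copies by 7, 13 and 14 counts in CTR and by 7, 28 and 19 counts in Cer. These extra counts made up 1.00% to 1.53% of the row in CTR and 2.09% to 2.78% in Cer, and the 2 ranges did not overlap. As a level, the extra counts came to 8.82 ± 1.67 CPM in CTR and 9.26 ± 1.27 CPM in Cer (SD, n = 3 each), with overlapping groups. The rows were selected on the difference in their counts, so the gap in the part they shared was set by that choice. Nothing is read from the overlap of the extra counts beside it. The exact Poisson intervals of the extra counts are wide, from 2.81 to 14.4 for the 7 counts of CTR replicate 1 and from 18.6 to 40.5 for the 28 of Cer replicate 2. The counts do not show from which arm the extra reads came.

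Because the 5 rows with miR-344d-3p repeat 1 signal, they were joined by keeping Mir344d-3 alone. This row held 0.0718%, 0.0662% and 0.0697% of all counts in CTR replicates 1, 2 and 3 and 0.0418%, 0.0366% and 0.0382% in Cer replicates 1, 2 and 3. The exact Clopper-Pearson 95% interval reached down to 0.0620% in CTR and up to 0.0466% in Cer. Left unjoined, the 5 rows added up to 0.328% to 0.356% of the counts in CTR and 0.179% to 0.206% in Cer, about 5 times as much. Which of these levels is closer to that of the miRNA is not known, as how shared reads were counted is not settled.

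In normalized CPM, Mir344d-3 stood at 697, 656 and 670 in CTR replicates 1, 2 and 3 and at 435, 382 and 382 in Cer replicates 1, 2 and 3. Every Cer library lay below every CTR library, and Cer replicate 1 was the highest of its group. Over the groups, Mir344d-3 had 674 ± 20.5 CPM in CTR and 400 ± 30.6 CPM in Cer (SD, n = 3 each). The coefficient of variation between replicates was 3.05% in CTR and 7.66% in Cer, while the counting error alone amounts to 3.15% to 5.46% of its count in a library.

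**Figure D1:**
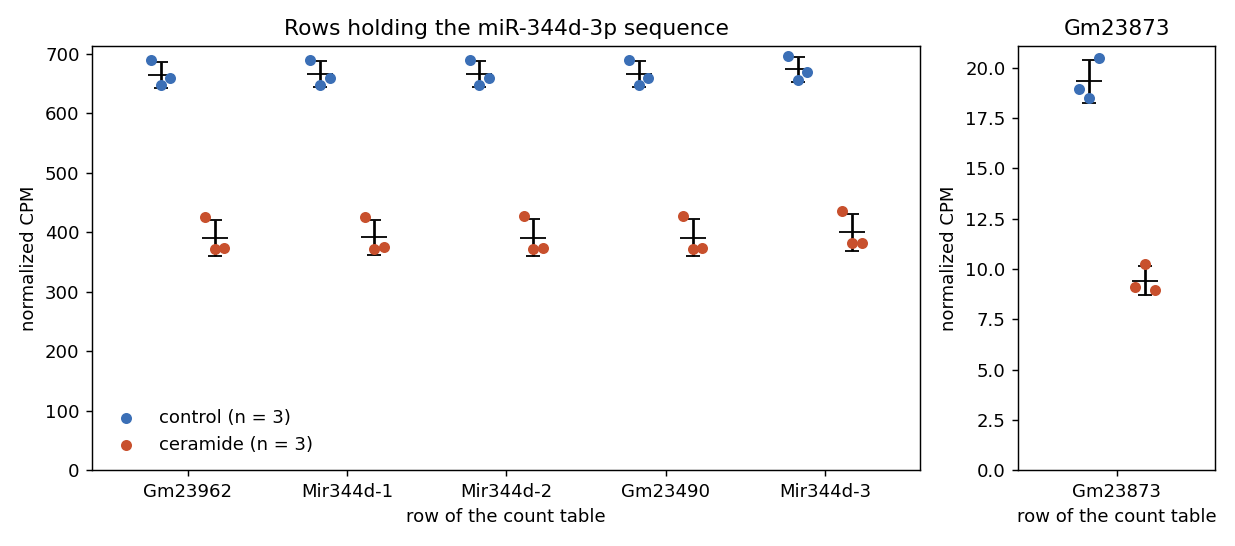
Normalized CPM (vertical axes, from 0) of the 5 rows holding miR-344d-3p, left, and of Gm23873, right, with CTR libraries in blue, Cer libraries in orange, and bars for the mean ± SD of 3 libraries. The 5 rows on the left repeat nearly the same values, near 674 CPM in CTR and 400 CPM in Cer, and no row has overlapping groups.

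The joined miR-344d signal was lower in Cer exosomes than in CTR exosomes, at 400 ± 31.5 CPM against 676 ± 21.3 CPM (SD, n = 3 each), a level 40.8% lower. Its log2 difference, Cer minus CTR, was -0.76 (standard error 0.10). In exosome RNA, fewer vesicles with a miRNA and fewer copies of it in each vesicle cannot be told apart. The single rows had log2 differences of -0.77 for Mir344d-1, Mir344d-2, Gm23490 and Gm23962 and -0.76 for Mir344d-3, which are not 5 measurements but 1. The labels' replicate numbers were taken as pairs, which 3 libraries a group cannot establish. The differences of the joined row within pairs 1, 2 and 3 were -0.68, -0.79 and -0.80. The library names carry a lane number, which is 1 in both libraries of pair 1, 2 in the other Cer libraries and 4 in the other CTR libraries. They also carry a sample number that repeats between libraries, so that sequencing may have taken several runs and an equal lane number does not show a shared lane. Outside pair 1, whatever these names mark cannot be told apart from the treatment.

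Gm23873, a rare row whose hairpin lacks miR-344d-3p, was also lower in Cer exosomes. It held 19, 26 and 28 counts in CTR replicates 1, 2 and 3 and 7, 27 and 21 in Cer replicates 1, 2 and 3, which is 19.0, 18.5 and 20.5 CPM and 9.1, 10.2 and 8.94 CPM. All 3 Cer libraries lay below all CTR libraries, with group levels of 19.3 ± 1.05 CPM and 9.42 ± 0.702 CPM (SD, n = 3 each). The log2 difference of Gm23873 was -1.02 (standard error 0.17), and within pairs 1, 2 and 3 it was -1.06, -0.85 and -1.20. With 7 counts in Cer replicate 1, whose exact Poisson interval runs from 2.81 to 14.4, its size is known less well than that of the joined row. The counts of Gm23873 amounted to 2.72% to 3.06% of those of Mir344d-3 in CTR and 2.09% to 2.68% in Cer, 2 ranges that did not overlap. Counting error alone amounts to 18.9% to 37.8% of the count of Gm23873 in a library, so nothing is read from that gap. Its coefficients of variation between replicates, 5.42% in CTR and 7.45% in Cer, were below that error, so the SDs above understate its uncertainty. The shared direction was fixed by the choice of the members.

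In the edgeR fit over all 418 rows tested, a row was called where its p, adjusted by Benjamini-Hochberg, was 0.05 or less and its log2 fold change was 0.6 or more either way. All 6 members were called lower in Cer, beside 8.37% of all rows tested called lower and 3.11% called higher, and nothing is read from this count, since the members were selected on this difference. All 6 also had every Cer library below every CTR library, beside 25.1% of all rows, and 39.2% of all rows had groups that did not overlap in one direction or the other. The median log2 fold change of all rows tested was -0.01. Gm23873 had the 9th lowest log2 fold change of the 418 rows and Mir344d-3 the 28th lowest, ranks that count every near-identical row, the other 4 copies of miR-344d included.

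**Figure D2:**
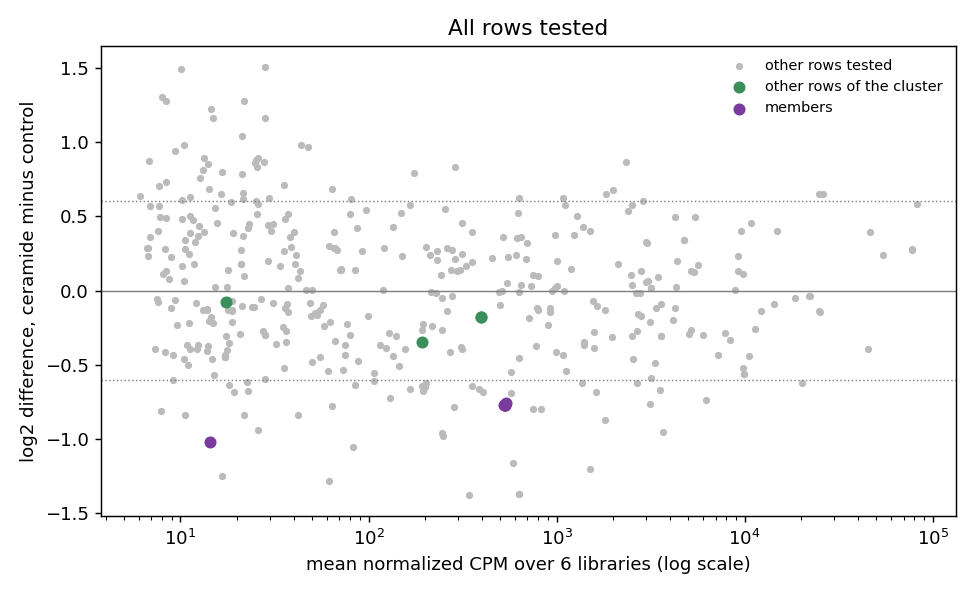
Log2 difference, Cer minus CTR (vertical axis), against mean normalized CPM over the 6 libraries (horizontal axis, log scale) for the 418 rows tested, with members in purple and other rows of the cluster in green. Dotted lines mark log2 differences of 0.6 either way, and the 5 copies with miR-344d-3p fall on nearly the same point, near -0.77, with Gm23873 further left and lower, at -1.02.

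The rest of the miR-344 family was tested in the same fit, though rows with a larger difference had already been taken as members, so the lower number of calls among the rest is partly set by that choice. A list of 15 further rows was made up of the other Mir344 genes, the other miRNA rows of the same stretch of chromosome 7, and rows whose miRNA shares a seed with a member's. Of these, 12 had a count in some library and 4 had enough counts to be tested, and 0 of the 4 were called in either direction by edgeR's quasi-likelihood test, beside 11.5% of all rows tested. DESeq2 and limma-voom called 0 of them too. In limma-voom, Mir344b had an adjusted p of 0.049 at a log2 fold change of -0.34, so only the fold threshold kept it from a call. At an unadjusted p under 0.05 there was 1 row of the 4, Mir344b. The median log2 fold change of the 4 rows was -0.18.

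Mir344b, at chr7:61790519-61790581 and 40.0 kb beyond Gm23873, held 207, 325 and 283 counts in CTR replicates 1, 2 and 3 and 133, 454 and 385 in Cer replicates 1, 2 and 3. In normalized CPM this was 207, 231 and 207 in CTR and 173, 172 and 164 in Cer, so that the groups did not overlap. Its log2 fold change was -0.34 (standard error 0.10, 95% interval -0.58 to -0.10), and its p from edgeR's quasi-likelihood test, adjusted by Benjamini-Hochberg over all rows, was 0.055. With the replicate number as a block the adjusted p was 0.015 at a log2 fold change of -0.35, which lay under the fold threshold. Over all 15 alternatives the adjusted p of Mir344b ranged from 0.015 to 0.48, and it was 0.05 or less in 3 of them.

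Mir344 and Mir344-2, hairpins with the same mature miRNAs at chr7:61877770-61877864 and chr7:61940027-61940106, also repeated 1 signal. Mir344 held 488, 562 and 518 counts in CTR replicates 1, 2 and 3 and 338, 942 and 765 in Cer replicates 1, 2 and 3, and Mir344-2 was within 1 count of it in every library. Mir344 had 487, 400 and 379 CPM in CTR and 439, 357 and 326 CPM in Cer, and the groups overlapped. The log2 fold change of Mir344 was -0.18 (standard error 0.15, 95% interval -0.54 to 0.18, adjusted p = 0.42 from the same edgeR test). Replicate 1 of either group was the highest, so part of the spread went with the replicate number, and under the block Mir344 was still not called.

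Mir344c, at chr7:61837311-61837402 between Mir344b and Mir344, was rare, with 18, 27 and 22 counts in CTR and 15, 38 and 42 in Cer. Its level was 17.8 ± 1.56 CPM in CTR and 17.3 ± 2.61 CPM in Cer (SD, n = 3 each). Between the groups the log2 value of Mir344c differed by -0.07 (95% interval -0.51 to 0.37, standard error 0.19, adjusted p = 0.78 from the same edgeR test). Mir344c was as rare as Gm23873 in CTR exosomes. As Gm23873 was selected on its difference, the gap between both rows was partly set by that choice, and it was not tested. The sign of Mir344c turned under 5 of the 15 alternatives, and neither direction was called.

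The remaining rows of the list were too low to test, with at most 4 counts in any library except for Mir410 with 8. They were Gm22466, Mir344h-1, Mir344h-2, Mir344g, Mir344f, Gm24923, Mir344i and Mir410, and with no filter the smallest adjusted p among these 8 was 0.59 from edgeR's quasi-likelihood test. Gm25533, Gm23917 and Mir344e held 0 counts in all libraries. Gm22466, Gm23917, Mir344e, Mir344h-1 and Mir344h-2 lie between members. Gm22466 held 1, 2 and 2 counts in CTR and 1 in each Cer library.

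**Figure D3:**
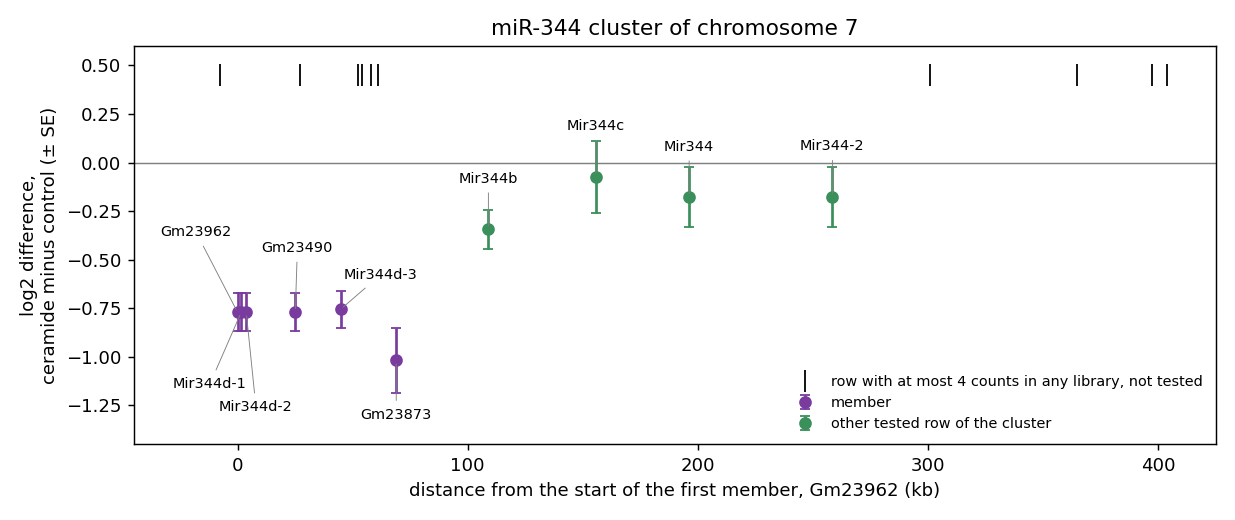
Log2 difference, Cer minus CTR, with its standard error (vertical axis), by distance in kb from the first member (horizontal axis), for the 10 tested rows of the chromosome 7 cluster, members in purple and others in green. Ticks at the top place the rows with at most 4 counts in any library, which have no value. The members, selected on this difference, lie between -1.02 and -0.76, and the other tested rows between -0.34 and -0.07. The 5 copies with miR-344d-3p repeat 1 signal, as do Mir344 and Mir344-2.

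Levels of different hairpins were compared as mean normalized CPM in CTR exosomes, not divided by hairpin length. The rows of the 5 copies with miR-344d-3p stood at 665 to 674 each. As they repeat 1 signal, the level of any one of these hairpins is unknown and none is ranked. Mir344 at 422 and Mir344-2 at 421 likewise repeat nearly the same counts, and Mir344b was at 215. Gm23873 at 19.3 and Mir344c at 17.8 were far lower. Their CTR libraries overlapped, at 18.5 to 20.5 CPM for Gm23873 and 16.1 to 19.2 CPM for Mir344c. In Cer exosomes Gm23873, a row selected on its difference, stood at 9.42 ± 0.702 CPM and Mir344c at 17.3 ± 2.61 CPM (SD, n = 3 each).

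Ratios of counts inside a library need no scaling between libraries, and they are compared here between libraries only, not as levels of one gene against another. The count of Mir344d-3 was 1.43, 1.64 and 1.77 times that of Mir344 in CTR replicates 1, 2 and 3 and 0.991, 1.07 and 1.17 times in Cer replicates 1, 2 and 3. Against Mir344b the ratio was 3.37, 2.84 and 3.23 in CTR and 2.52, 2.22 and 2.33 in Cer. In both ratios every Cer library lay below every CTR library. The ratio of Mir344b to Mir344, which holds no member, was 0.424, 0.578 and 0.546 in CTR and 0.393, 0.482 and 0.503 in Cer, and there the groups overlapped. As the members had been selected on their difference, the ratios of Mir344d-3 restate that choice on another scale, and no test was made of them.

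**Figure D4:**
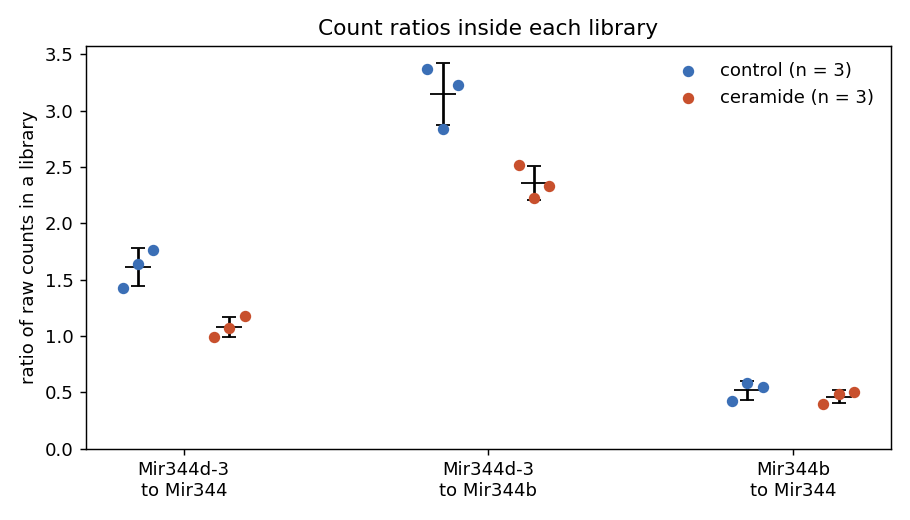
Ratio of raw counts in each library (vertical axis, from 0) for 3 pairs of rows, with CTR libraries in blue, Cer libraries in orange, and bars for the mean ± SD of 3 libraries. Both ratios of Mir344d-3 are lower in all Cer libraries, on average 1.08 against 1.61 to Mir344 and 2.36 against 3.15 to Mir344b, whereas the ratio of Mir344b to Mir344 overlaps.

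The joined miR-344d signal was also compared with the 389 other tested rows outside the family, near-identical rows counted once, by Pearson's r of log2 normalized CPM over the 6 libraries. The 5 rows most like it were Mir19b-1 (r = 0.993), the miR-146a hairpin Mir146 (0.993), Mir19a (0.990), Mir34b (0.987) and Mir500 (0.986), and all 5 were lower in Cer exosomes. The median r over the 389 rows was 0.02, and 42 rows reached 0.9. miR-19a and miR-19b belong to the miR-17-92 cluster, miR-34b is a miRNA induced by p53, and miR-146a is known for its part in inflammation. The 6 libraries fall into the 2 groups in all these correlations, and they share the depth and scaling of each library. Within the groups, the r of the deviations from the group means was 0.972 for Mir19b-1, 0.828 for Mir146, 0.882 for Mir19a, 0.489 for Mir34b and 0.428 for Mir500, and none of the 5 was then among the 5 most alike. Of the family, Gm23873 had an r of 0.967 with the joined signal, Mir344b 0.930, Mir344 0.60 and Mir344c 0.264.

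**Figure D5:**
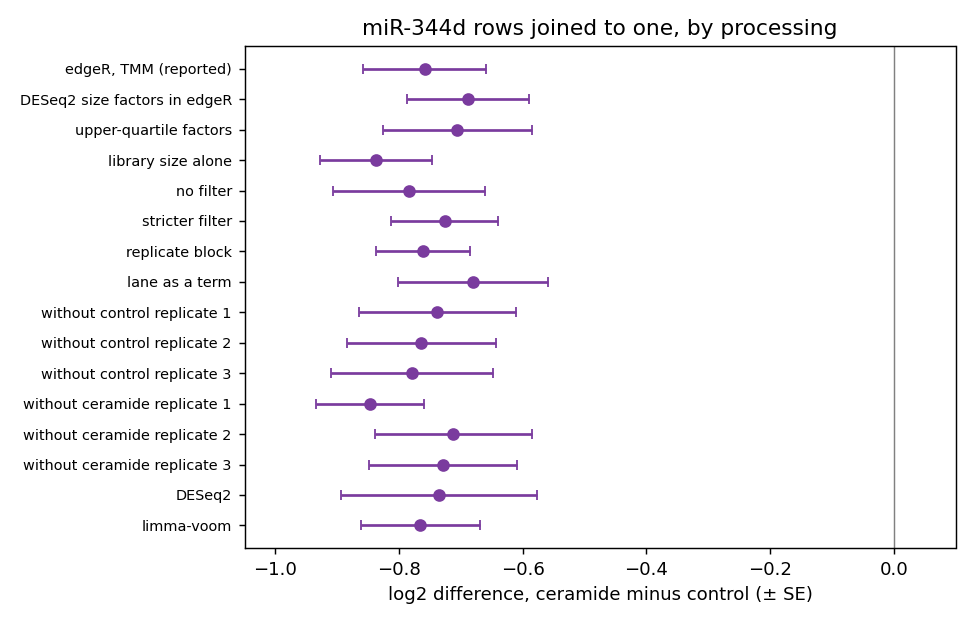
Log2 difference, Cer minus CTR, of the joined miR-344d row with its standard error (horizontal axis) under the reported fit (top) and 15 other ways of processing. The value stays between -0.85, where Cer replicate 1 is left out, and -0.68, where the lane number enters the model.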

How the data were processed

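Small RNA of exosomes from 3 control and 3 ceramide libraries was sequenced with a QIAseq miRNA kit. After adapter trimming (Cutadapt 1.15, per the submitters' processing notes), the authors mapped reads with STAR 2.5.3a to GRCm38 and deposited raw counts for the miRNA genes of GENCODE. Which GENCODE release was used, whether strand counted, and how molecular identifiers were handled are not given in the sources used here. The methods name STAR's GeneCounts option, which leaves out reads with several alignments, whereas rows sharing miR-344d-3p held nearly equal counts, and this was not resolved. Names and coordinates were taken from GENCODE M21, which matched 1894 of the 1973 rows.

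Counts were tested with edgeR 4.0.16 (R 4.3.3), quasi-likelihood, TMM, filterByExpr (418 rows), condition as the only term, called at an adjusted p up to 0.05 and a log2 fold change of 0.6 or more either way. Standard errors come from the F statistic. Log2 CPM for correlations used a prior count of 2. Rows within 5% of each other in every library were taken as near-identical, and the most abundant was kept. The fit was checked on simulated counts of independent libraries, without pairing or near-identical rows, which is no support for the results here. The rows named are the members, the family list, and the 5 rows most correlated with the joined row.

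Replicate numbers come from the labels. Deviations from group means correlated by 0.59, 0.43 and 0.75 in pairs 1, 2 and 3, against -0.59 to 0.10 between unlike numbers, so the numbers were taken to pair the libraries. Deviations cancel within a group, so positive values for like numbers pull the others down, and the contrast is partly set. With 3 libraries a group the pairing rests on weak evidence, and a shared culture or run is not shown. Alternatives were other normalizations, filters and tools (DESeq2 1.42.0, limma 3.58.1), the replicate block, a stricter filter (at least 10 counts in every library of a group), the lane number in the library names as a term (called lane, though it may stand for different runs) and leaving out each library. The members and lists were chosen with earlier results of these data known. The depth of 800810 to 2760015 counts a library decided which rows of the cluster could be tested.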

Additional observations from a re-analysis of the deposited data

How the results depend on the processing

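Across the alternatives, the log2 difference of the joined row lay between -0.85 and -0.68 and that of Gm23873 between -1.10 and -0.90. The members were selected on this difference in the same libraries, so its sign under other processing is no further support. The 90 values over the 6 members lay between -1.10 and -0.65, and 84 of them moved by less than the spread between replicates. These are not 90 separate results, since 5 of the 6 rows repeat 1 signal. The stricter filter moved all 6, to -0.67 for Mir344d-1, Mir344d-2, Gm23490 and Gm23962, -0.65 for Mir344d-3 and -0.90 for Gm23873. With 7 counts in ceramide replicate 1, Gm23873 passed this filter only through the control group, where it was higher. The joined row ranged from -0.85 to -0.71 with each library left out in turn, the lowest without ceramide replicate 1, and was -0.76 with the replicate block. With DESeq2, and with the lane number of the library names as a term, 5 of the 6 members were called, all but Gm23873. The number of rows called, 48, changed to 87 with the replicate block and 29 with the lane as a term, and 28 to 55 with each library left out in turn, the lowest without control replicate 1, and the cause was not tested. With the lane as a term, the joined row was -0.68 and rests on pair 1 alone. The split of higher and lower rows, 13 and 35, was 21 and 26 under DESeq2 size factors, 23 and 28 with upper-quartile factors and 4 and 42 with library size alone, which shifted the median of all rows from -0.01 to 0.07, 0.06 and -0.09. It was 5 and 30 with no filter and 23 and 24 with the stricter filter, 38 and 49 with the replicate block.

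Of the other family rows, 0 were called in any of the 15 alternatives, the replicate block included. Mir344c turned positive under DESeq2 size factors (0.00051), the stricter filter (0.039), the lane as a term (0.12), without control replicate 2 (0.02) and without ceramide replicate 2 (0.053), and it ranged from -0.16 to 0.053 with each library left out. With near-identical rows counted once in the totals, the mean share of the joined row was 0.0824% in control and 0.0461% in ceramide libraries, against 0.0692% and 0.0389%. Of the 5 most similar rows, 0 were among the top 5 by Spearman's correlation and 0 by deviations from the group means, and 4 with library size alone. Depth limits Gm23873 and Mir344c, with 7 to 28 and 15 to 42 counts in a library, and leaves 11 rows of the family list untested.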
